A study of Drosophila melanogaster with 6 samples.

Results

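The baseline transcriptome of the adult male brain was described from the 4 control libraries of a Drosophila melanogaster series, out of 6 libraries in all. They were chosen by genotype, as the columns of the 2 control genotypes in the table of counts. Males were 4 to 5 days of age, and for every replicate no fewer than 450 of their brains, barrier attached, were dissected at a fixed time of day, freed of fat body, trachea and cuticle, and pooled. The +/SPG-GAL4 males (2 biological replicates) carried the SPG-GAL4 driver, expressed from the promoter of moody in the subperineurial glia, without the transgene it can activate. The +/TraF males (2 biological replicates) carried the UAS-TraF transgene, the female form of Transformer, without a driver. Both genotypes share the w1118 background, a white mutant stock. The study used them as controls for males in which TraF was expressed in these glia, whose junctions seal the brain from the blood, and those males were not used here. No measure of the brain here comes from flies free of a transgene.

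The fly brain holds neurons, which carry and process signals, and several classes of glia, which wrap neurons, clear neurotransmitters and form the barrier towards the blood. A gene can give several messenger RNAs, called isoforms or transcripts, through alternative start sites, splicing and ends. Neural genes are known for many such isoforms. A poly-A library of a whole brain averages over all of its cells, so fewer cells of a type and less RNA per cell cannot be told apart.

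Counts are given as CPM (counts scaled to the library total), in which long transcripts collect more counts than short ones at the same number of molecules. Levels of different genes are therefore compared as TPM, counts divided by the annotated transcript length and scaled to a common total. The libraries held from 32839081 to 35513653 counts, so 1 CPM stood for 32.8 to 35.5 counts. All 4 correlated across the 8496 expressed genes with Pearson's r of log2 CPM from 0.989 to 0.996, where genes are no independent replicates. +/SPG-GAL4 replicate 1 stood apart: its r with the other libraries was 0.989 to 0.991, and the other 3 libraries had an r of 0.994 to 0.996 with each other. Its deviation followed transcript length. Against the mean over the 4 libraries its median log2 difference was -0.29 in the quartile of genes with the shortest main isoforms (162 to 1299 nucleotides) and 0.14 in the quartile with the longest (3453 to 48733 nucleotides), while the other libraries lay between -0.08 and 0.14 in every quartile. +/SPG-GAL4 replicate 2 had a count above 0 in the most genes, 12662 against 11876 to 12173 in the other libraries, and 383 genes had counts there alone, 1109 counts in sum.

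The table holds 28071 transcripts of protein-coding genes, and 28061 of them were matched to 13453 genes of the annotation. Of these genes, 8496 (63.2%) were expressed, here meaning at least 1 CPM in each of the 4 libraries. A single library had 8653 and 8801 such genes in +/SPG-GAL4 males, against 8732 and 8682 in +/TraF males, 8717 ± 64.8 (SD, n = 4). A further 517 genes reached 1 CPM in some libraries only. The number of expressed genes was 8542 without +/SPG-GAL4 replicate 1. At the low end, 4584 genes had a mean above 0 but under 1 CPM and together held 0.0854% of the counts, and 141 genes were at 0 in every library.

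Levels of the expressed genes spread widely. The median of their mean levels was 36.1 CPM, and the most abundant gene lay 659-fold above it. At least 10 CPM in every library was reached by 6480 genes, at least 100 CPM by 2092 and at least 1000 CPM by 95. Spread over the 4 libraries, which joins both genotypes and their replicates, was small for most of them. The median coefficient of variation over these libraries was 10.1%. It was 15.9% for genes with a mean from 1 to under 10 CPM against 9.05% for those from 100 to under 1000 CPM.

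The counts were concentrated in few genes. The 10 most abundant genes took 7.25% and 7.06% of the counts in +/SPG-GAL4 males, against 8.33% and 8.36% in +/TraF males, 7.75% ± 0.69 (SD, n = 4). The 100 most abundant took 23.1% ± 0.79 (SD, n = 4). In the mean over the libraries 119 genes held 25% of the counts, 584 genes held 50%, 3394 genes held 90% and 6718 genes held 99%. The curves of the 4 libraries in the plot of concentration lie nearly on each other.

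**Figure D1:**
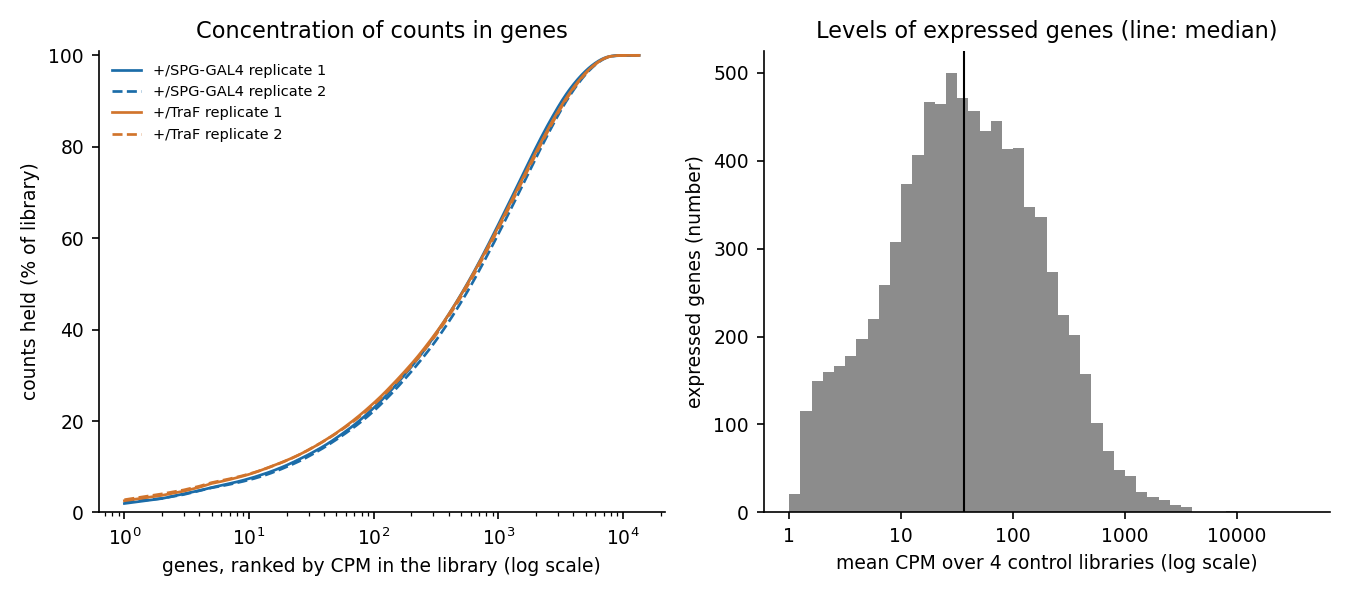
Left, percent of the counts of a library held by its most abundant genes, against the number of genes in order of CPM (log scale), 1 line per library. The lines start at the share of mt:CoI and pass 50% of the counts close to 584 genes, the number in the mean over the libraries. Right, number of expressed genes by mean CPM over the 4 control libraries (log scale), with the median of 36.1 CPM as a vertical line.

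The most abundant messenger of the male brain came from the mitochondrial genome. mt:CoI, a subunit of cytochrome c oxidase, the last enzyme of the respiratory chain, had 19549 and 22141 CPM in +/SPG-GAL4 males, against 25613 and 27797 CPM in +/TraF males. It was followed by mt:CoIII, another subunit of that enzyme, with 7231 and 8500 CPM in +/SPG-GAL4 males, against 11728 and 12745 CPM in +/TraF males. Both genes were lower in each +/SPG-GAL4 library than in each +/TraF library. All 13 protein-coding genes of the mitochondrial genome were expressed and together held 5.34% ± 0.99 of the counts (SD, n = 4) and 10.4% of the TPM. Their sum was 41971 and 48553 CPM in +/SPG-GAL4 males, against 59594 and 63431 CPM in +/TraF males, and the groups did not overlap. With 2 libraries a genotype such a separation can arise by chance, and its share over all genes was not counted. In edgeR's test between the genotypes 0 of the 13 genes were called at an adjusted p below 0.1. The lowest member was mt:ND4L, with a mean of 92.6 TPM.

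The nuclear genes with the most counts were Atpalpha and IA-2. Atpalpha, the catalytic subunit of the sodium pump that restores ion gradients after firing, had 10850 and 8288 CPM in +/SPG-GAL4 males, against 9305 and 8165 CPM in +/TraF males. IA-2, a protein of dense-core vesicles, had 10342 and 8601 CPM in +/SPG-GAL4 males, against 8252 and 7753 CPM in +/TraF males. For both genes +/SPG-GAL4 replicate 1 was the highest library and the other 3 lay close together. The genotypes overlapped for Atpalpha, while both +/SPG-GAL4 libraries were above both +/TraF libraries for IA-2. Cam (calmodulin, the main calcium sensor) averaged 4292 ± 419 CPM, nrv3 (a beta subunit of the sodium pump) 3502 ± 442 CPM, 14-3-3zeta (an adaptor of signaling kinases) 3402 ± 171 CPM and cpx (complexin, a clamp of synaptic vesicle fusion) 3397 ± 445 CPM (SD, n = 4 each). Their libraries overlapped between the genotypes.

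Others among the 20 genes with the most counts were 2 G protein gamma subunits, Ggamma30A with 3375 ± 389 CPM and Ggamma1 with 2892 ± 108 CPM, and the vesicle motor unc-104 with 2890 ± 324 CPM (SD, n = 4 each). Sap47, a synapse-associated protein, had 2586 ± 305 CPM and Fas1, a cell adhesion protein, 2575 ± 353 CPM. Energy and neurotransmitter metabolism was represented by sesB, the mitochondrial carrier that exchanges ADP and ATP (2964 ± 255 CPM), and by Gs2, a glutamine synthetase (2805 ± 220 CPM). CG42613 had 3265 ± 252 CPM, but 63.2% of its exon bases are also exons of another gene, so its counts may in part belong to that gene. The kit does not mark the strand.

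Per transcript length the order changed, and short messengers moved up. mt:CoI stayed first with 32464 ± 3249 TPM, before mt:CoIII with 26603 ± 5577 TPM and mt:Cyt-b (cytochrome b) with 13832 ± 1873 TPM (SD, n = 4 each). The highest nuclear gene was Obp44a, a member of the odorant-binding protein family, with 8815 and 10660 TPM in +/SPG-GAL4 males, against 9252 and 10504 TPM in +/TraF males, and the genotypes overlapped. MtnA (metallothionein A, a metal-binding protein) followed with 5912 ± 953 TPM, while it was 125th by CPM. Adh (alcohol dehydrogenase) had 4314 ± 410 TPM, but 93.9% of its exon bases are also exons of Adhr, which shares its transcripts. Neighbours in this order often do not differ beyond their spread: CG8369 with 4216 ± 588 TPM, RpL5 with 4216 ± 492 TPM and Atpalpha with 3911 ± 848 TPM overlapped. The 10 genes with the highest TPM held 12.1% of all TPM.

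**Figure D2:**
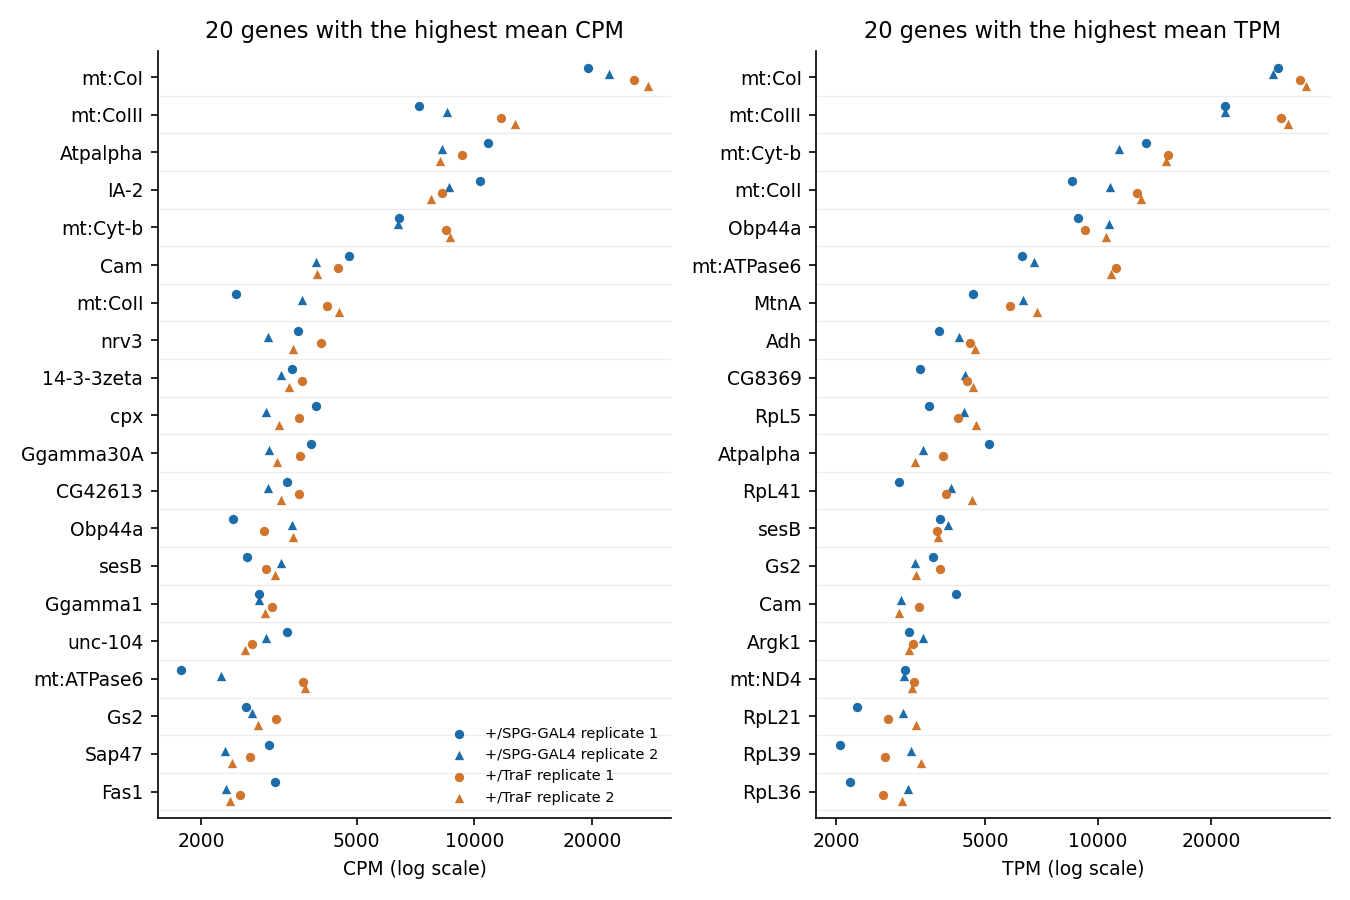
The 20 genes with the highest mean CPM (left) and the highest mean TPM (right), with 1 point per control library, on log scales. Blue points are +/SPG-GAL4 replicates and orange points +/TraF replicates. For each mitochondrial gene shown both orange points lie right of both blue points. For most nuclear genes the colours mix. Exceptions in the left panel are IA-2 and unc-104 (both blue points right) and Ggamma1 and Gs2 (both orange points right). Exceptions in the right panel are sesB (both blue points right) and Adh and CG8369 (both orange points right).

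Ribosomal proteins formed the largest nuclear group. Of 92 genes with RpL or RpS symbols 84 were expressed, with a median of 1205 TPM, and together they held 3.80% ± 0.75 of the counts (SD, n = 4) and 11.7% of the TPM. The group had 27408 CPM in +/SPG-GAL4 replicate 1 and 42775, 38016 and 43809 CPM in the other libraries. That library was low in short messengers as a whole, and the part of this in the sum was not tested. The highest members by CPM were RpL5 with 2073 CPM and RpS6 with 969 CPM. The 8 members that were not expressed had means from 0 (RpS28-like) to 0.628 CPM (RpS5b), and by symbol they are copies of other ribosomal protein genes, whose reads can be shared between copies.

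Of 88 nuclear genes of the respiratory chain 63 were expressed, with 1.58% ± 0.20 of the counts (SD, n = 4). ATPsynbeta and ATPsynC, subunits of the ATP synthase, led with 2195 and 1685 CPM. All 12 genes of glycolysis were expressed, 11 of them at 100 CPM or more. Gapdh2 had 1359 ± 95.0 TPM and Ldh, which makes lactate from pyruvate, 12.2 ± 5.60 TPM (SD, n = 4 each). Ldh was the lowest of the 12, with 5.85 and 6.09 CPM in +/SPG-GAL4 males, against 7.89 and 15.0 CPM in +/TraF males.

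Genes of the synapse were expressed without exception. All 21 listed genes of the active zone and the vesicle cycle were at 100 CPM or more and held 2.26% ± 0.21 of the counts (SD, n = 4). cpx led with 1864 ± 392 TPM and nSyb (synaptobrevin, the vesicle protein of membrane fusion) had 1708 ± 275 TPM, against 56.1 ± 11.5 TPM for Liprin-alpha, a scaffold of the active zone (SD, n = 4 each). All 17 listed voltage-gated channel genes were expressed, 15 of them at 100 CPM or more. Their median was 105 TPM, and they ran from the potassium channel KCNQ with 21.7 TPM to Ih, a channel opened by hyperpolarization, with 234 TPM. Their sum was 8512 CPM in +/SPG-GAL4 replicate 1 and 5485, 5881 and 5859 CPM in the other libraries, so this library stood alone. It was high in long messengers as a whole, and the channel genes had a median length of 7860 nucleotides. The part of length in the sum was not tested.

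Of 34 neuropeptide precursor genes 31 were expressed. Ms (myosuppressin) had 1440 ± 136 TPM and Ilp2, an insulin-like peptide of the neurosecretory cells, 1422 ± 148 TPM (SD, n = 4 each), and these do not differ beyond their spread. Ilp2 had 342 and 514 CPM in +/SPG-GAL4 males, against 464 and 502 CPM in +/TraF males. The 3 that were not expressed were RYa, Eh and ETH, with means of 0.666, 0.331 and 0.309 CPM. Eh and ETH are hormones of ecdysis, the shedding of the cuticle at the end of a moult.

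The tissue label was checked with marker genes of brain cells. All 8 pan-neuronal genes were at 100 CPM or more in every library, among them elav, the RNA-binding protein used to mark neurons, with 451 and 351 CPM in +/SPG-GAL4 males, against 375 and 371 CPM in +/TraF males. Of the fast transmitters, markers of cholinergic neurons had 264 ± 61.3 TPM (VAChT, the vesicular transporter of acetylcholine) and 179 ± 41.5 TPM (ChAT, the enzyme that makes it). Gad1, the enzyme that makes GABA, had 1362 ± 206 TPM and the vesicular GABA transporter VGAT 184 ± 22.9 TPM. The vesicular glutamate transporter VGlut had 244 ± 35.8 TPM (SD, n = 4 each). VAChT was above VGlut and VGlut above VGAT in each of the 4 libraries, but the ranges over libraries of VGlut overlapped with those of both others.

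Markers of monoamine neurons ran over a wide range. The genes shared by several monoamines were the highest of them, with 332 ± 62.5 TPM for the vesicular transporter Vmat and 288 ± 35.8 TPM for Ddc, the decarboxylase that makes dopamine and serotonin (SD, n = 4 each). The genes of single monoamines were lower than these. ple, the tyrosine hydroxylase of dopamine neurons, had 46.6 ± 7.08 TPM, Trhn, the tryptophan hydroxylase of serotonin neurons, 63.2 ± 3.37 TPM, and Tdc2, the tyrosine decarboxylase of octopamine and tyramine neurons, 31.5 ± 2.67 TPM. The membrane transporters DAT and SerT had 42.4 ± 1.96 and 29.7 ± 3.45 TPM (SD, n = 4 each). Tdc2 was the lower of the 2 octopaminergic genes listed, and with the higher one, Tbh, the sum was 107 TPM. The genotypes overlapped for ple, with 77.6 and 72.9 CPM in +/SPG-GAL4 males, against 75.1 and 66.5 CPM in +/TraF males. Hdc, which makes histamine, was the lowest with 8.61 ± 0.86 TPM. Markers of the mushroom body, the centre of olfactory memory, were expressed, 4 of 4, from 39.1 TPM for the dopamine receptor Dop1R1 to 430 TPM for the peptide precursor sNPF.

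Each glial class was represented. The transcription factor repo, which marks nearly all glia, had 134 and 164 CPM in +/SPG-GAL4 males, against 160 and 158 CPM in +/TraF males. Astrocyte-like glia clear and recycle transmitters, and their glutamate transporter Eaat1 had 1037 ± 89.2 TPM, their GABA transporter Gat 913 ± 138 TPM and the receptor-like protein alrm 875 ± 72.2 TPM (SD, n = 4 each). The fourth gene of the list, e (ebony, which conjugates amines with beta-alanine), had 98.7 ± 10.7 TPM, so the list was not uniform. In cortex glia, zyd (an ion exchanger) and wrapper (an adhesion protein) had 300.3 and 285 TPM. Ensheathing glia were represented by Eaat2 with 211 TPM and the engulfment receptor drpr with 96.3 TPM.

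The barrier layers were measured in whole brains only. All 5 markers of the subperineurial glia were expressed, and their sum was 461 and 524 CPM in +/SPG-GAL4 males, against 466 and 484 CPM in +/TraF males, so the genotypes overlapped. Mdr65, a drug efflux transporter of the barrier, had 91.7 ± 6.82 TPM, moody, the receptor that controls the junctions and whose promoter drives SPG-GAL4, 64.2 ± 4.39 TPM, the septate junction protein kune 41.3 ± 2.50 TPM and the junction protein Gli 5.90 ± 0.38 TPM (SD, n = 4 each). In the perineurial layer the sugar transporter Tret1-1 had 154 ± 13.1 TPM. vkg, a chain of collagen IV, had 139 ± 13.2 TPM, but it is also made outside the brain.

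Some markers of other tissues were expressed, a few of them at high levels. Of 14 eye genes 13 were expressed, and their sum was 957 and 963 CPM in +/SPG-GAL4 males, against 1017 and 922 CPM in +/TraF males. norpA, a phospholipase C also used by neurons, made up 617 CPM of the mean, while the main photoreceptor opsin ninaE had 37.7 and 55.5 CPM in +/SPG-GAL4 males, against 81.7 and 55.6 CPM in +/TraF males. Of 8 fat body genes 4 were expressed, led by the lipoprotein apolpp with a mean of 1057 CPM, and the yolk proteins Yp1, Yp2 and Yp3 had 0.917 to 1.04 CPM. All 4 hemocyte genes were expressed. Hml, the clotting protein hemolectin, had 41.0 and 98.1 CPM in +/SPG-GAL4 males, against 51.2 and 59.8 CPM in +/TraF males. Of 8 muscle genes 6 were expressed with a sum of 37.0 to 43.4 CPM, and of 8 testis genes 0 were. The testis sum was 0.457 and 4.79 CPM in +/SPG-GAL4 males, against 0.899 and 0.648 CPM in +/TraF males, so +/SPG-GAL4 replicate 2 was the high library, as it was for the 4 hemocyte genes with 454 CPM against 343 to 381 CPM in the others. The part of carried-over tissue in other results was not tested.

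**Figure D3:**
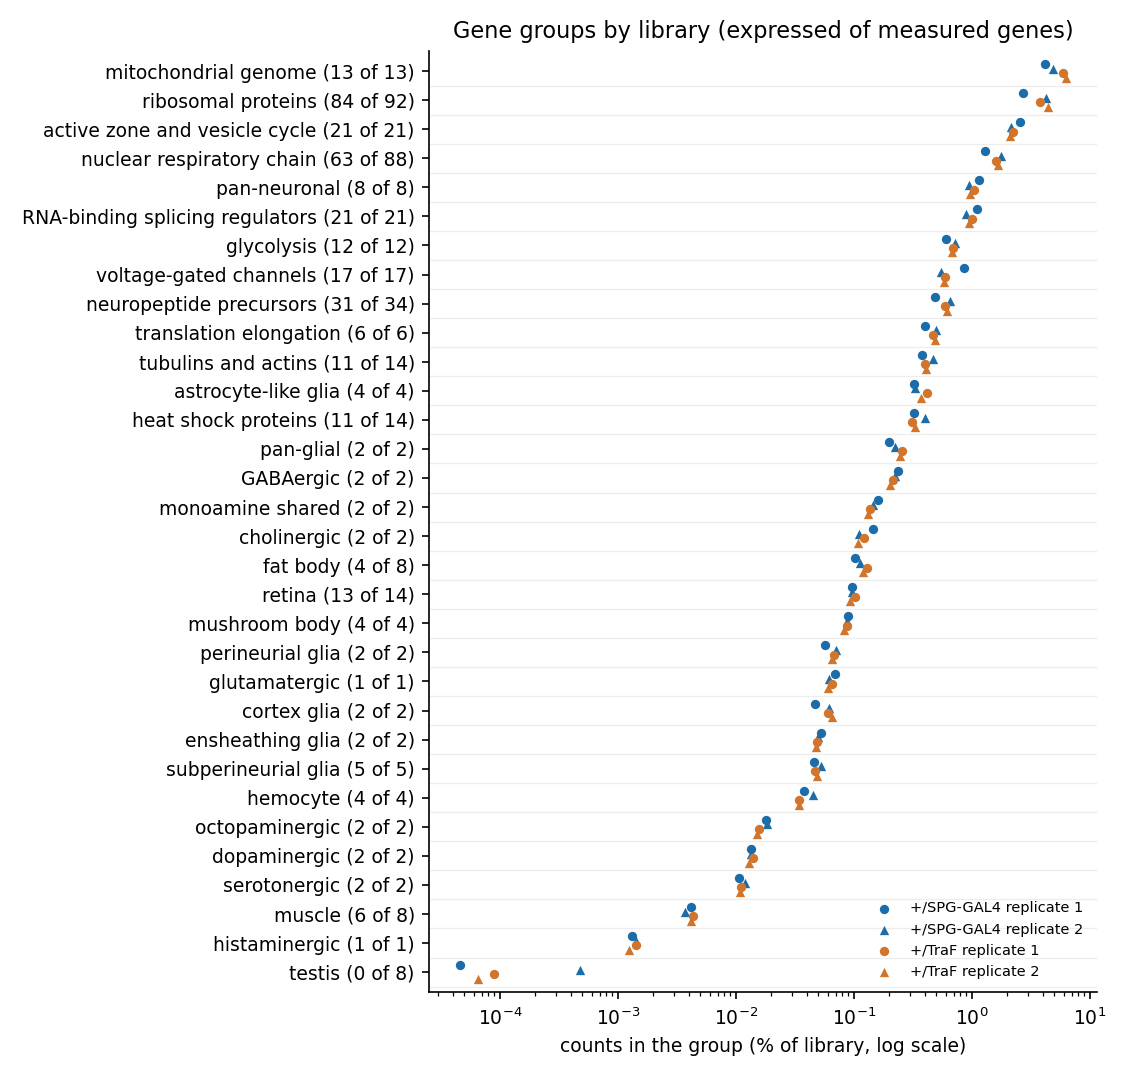
Percent of the counts of each library in each gene group (log scale), ordered by the mean, with expressed and measured genes of the group in parentheses. Blue points are +/SPG-GAL4 replicates and orange points +/TraF replicates. The mitochondrial genome is highest with 5.34% and testis genes lowest, and +/SPG-GAL4 replicate 2 lies far right of the others for testis genes.

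Expressed genes were not spread evenly over the chromosomes. On the large autosomes 6967 of 11205 genes (62.2%) were expressed, with a median of 38.5 TPM. The X chromosome, present as a single copy in males and raised in output by dosage compensation, had 1436 of 2131 genes (67.4%) expressed, with a median of 35.4 TPM. The X median was 39.8 and 35.4 TPM in +/SPG-GAL4 males, against 33.6 and 32.7 TPM in +/TraF males. The median of the large autosomes was 40.4 and 38.7 TPM in +/SPG-GAL4 males, against 37.0 and 36.4 TPM in +/TraF males. The X median was thus lower in each of the 4 libraries in TPM, but not in CPM, where it was 38.6 CPM against 35.0 CPM for the large autosomes in the mean over the libraries. The small chromosome 4 stood out: 78 of its 80 genes (97.5%) were expressed, 58 of them at 100 CPM or more, with a median of 129 TPM and from 114 to 160 TPM by library. Its most abundant gene was unc-13, which primes synaptic vesicles, with 2365 CPM. Of 19 genes on the Y chromosome 0 were expressed. Different genes share the chromosome and its chromatin, and no test was made.

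At the level of transcripts, 15953 of 28071 (56.8%) were expressed. The 10 most abundant single transcripts were 5 mitochondrial messengers and 5 nuclear ones. The first nuclear one was IA-2-RD (FBtr0301417, chromosome 2L, 1008378 to 1048053 of BDGP6.54, 12 exons, 9821 nucleotides), with 8926 and 7338 CPM in +/SPG-GAL4 males, against 7191 and 6808 CPM in +/TraF males. Atpalpha-RJ (FBtr0333324, chromosome 3R, 20948714 to 20976239, 10 exons) had 6074 and 4429 CPM in +/SPG-GAL4 males, against 5389 and 4649 CPM in +/TraF males. The others were Ggamma30A-RH, Obp44a-RA and Ggamma1-RA with means of 3112, 3027 and 2743 CPM. Of these 5 transcripts, 4 held over 86% of the counts of their gene, and Atpalpha-RJ held 56.1%.

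Of the 8496 expressed genes 3219 have 1 transcript in the table and 5277 have several, 18364 transcripts in sum and a mean of 3.48 per gene. The brain used fewer of them. Counting a transcript as used where it holds at least 10% of the counts of its gene in the mean over the libraries, these genes used 1.92 isoforms on average. A single used isoform was found in 1709 genes (32.4%), 2 in 2574 genes (48.8%), 3 in 740 genes, 4 in 217, 5 in 35 and 6 in 2. All of their listed transcripts were used by 1647 genes (31.2%). In contrast 3262 transcripts (17.8%) held under 1% of their gene, and 651 were at 0 in every library.

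A main isoform usually dominated. The main isoform, the transcript with the highest mean share, took 75.7% of the counts of its gene at the median, with quartiles of 56.9% and 92.2%. The highest share within a single library was also taken, whichever transcript led there. Its median was 75.9% and 75.8% in +/SPG-GAL4 males, against 77.2% and 76.5% in +/TraF males. In 1528 genes (29.0%) the main isoform held at least 90%, in 727 genes (13.8%) under 50% and in 21 genes under 25%. Without +/SPG-GAL4 replicate 1 the median share of the main isoform was 75.8% and the number of isoforms used 1.91. Kallisto shares out the reads that fit several isoforms, and the error of that step is not in these values.

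The identity of the main isoform was mostly stable between libraries. In 4622 of the 5277 genes (87.6%) the same transcript led in all 4 libraries, which held for 92.0% of genes with a main share of at least 50% and for 60.0% of the rest. The median SD of the main share over the libraries was 2.88 percentage points. Stability was higher for abundant genes, with 96.2% of genes at 1000 CPM or more against 71.1% of genes from 1 to under 10 CPM. The main isoform was the longest listed one in 40.4% and the shortest in 35.6% of the 5198 genes whose transcripts differ in length. Dividing counts by length changed the main isoform in 176 genes (3.34%).

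Dominance fell with the number of transcripts listed. The lowest share that a main isoform can have also falls with that number, so a fall is in part built in. The median main share was 87.6% in 2457 genes with 2 transcripts, 73.2% with 3, 66.4% with 4, 56.1% with 5 to 9, 44.8% with 10 to 19 and 34.0% in the 9 genes with 20 or more. Genes with more transcripts also had more counts, with a median of 32.9 CPM at 2 transcripts and 244 CPM at 10 to 19. They were longer as well, with a median length of 1975 against 4958 nucleotides, and longer transcripts collect more counts. The parts of abundance and of length in this order were not tested.

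**Figure D4:**
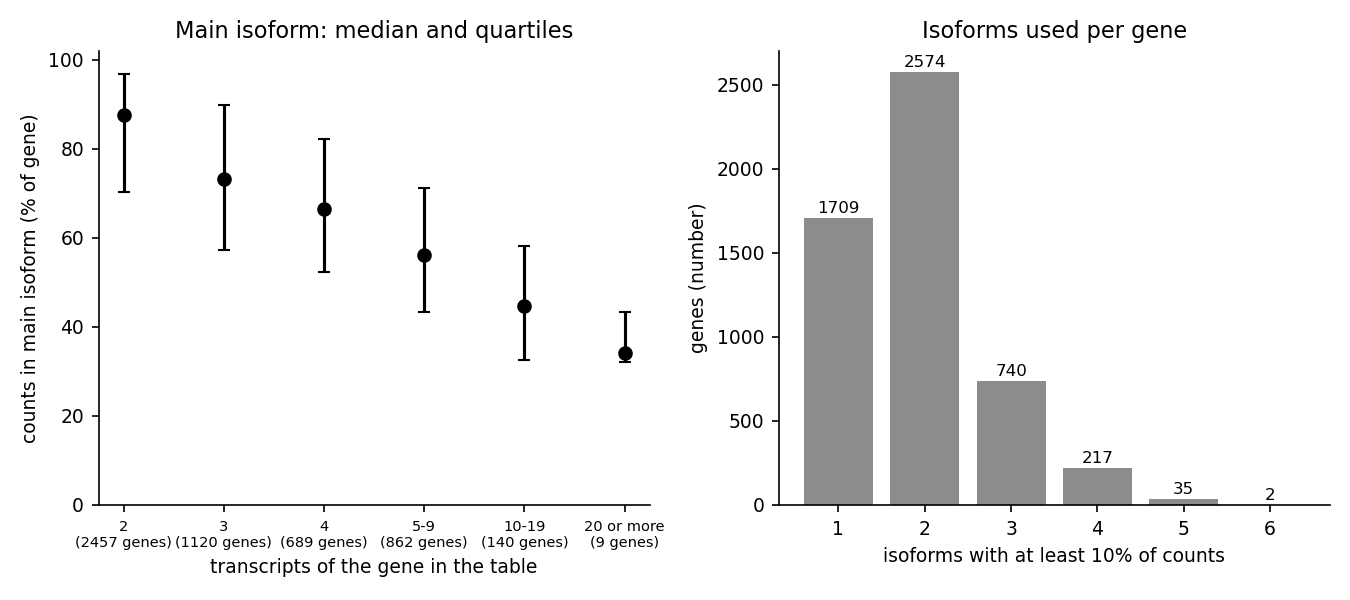
Left, percent of the counts of a gene in its main isoform, by how many transcripts the table lists for it, with the median as a point, quartiles as bars and the number of genes in parentheses. The median goes down at each step, to 34.0% in genes with 20 or more. Right, number of expressed genes with several transcripts by the number of isoforms that hold at least 10% of the counts, of which 2574 use 2.

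Gene groups differed in how they used isoforms. The 68 ribosomal protein genes with several transcripts had a median main share of 97.3% and used 1.18 isoforms, and the heat shock group had 98.1% over 9 genes. Glycolysis had 84.4% over 12 genes and the nuclear respiratory chain 86.6% over 56 genes. The 17 voltage-gated channel genes, with a mean of 7.71 transcripts, had 54.1% and used 2.53 isoforms, the 20 splicing regulators 58.3% and 2.45, and the 21 synaptic genes 60.4% and 2.38. These values lay near those of all genes with 5 to 9 transcripts, 56.1% and 2.59. The lowest median of all groups was that of 5 muscle genes, 40.6% with 3.20 isoforms used, which had few counts. The group values also take in members that were not expressed, while all listed channel, splicing and synaptic genes were expressed. Differences between groups were not tested.

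Among the genes with the most transcripts dominance ranged widely. Dscam1, the cell recognition molecule known for its very many possible isoforms, has 68 in the table. Among these 68, the main isoform Dscam1-RCD held 34.0% and 30.9% in +/SPG-GAL4 males, against 32.95% and 34.4% in +/TraF males. No other reached 10%. Possible isoforms that are not listed have no share of their own here. mod(mdg4), a chromatin protein with many alternative last exons, was the most even. Its leading transcript mod(mdg4)-RS held 11.9% and 10.4% in +/SPG-GAL4 males, against 9.49% and 9.81% in +/TraF males. The shares of its transcripts correspond to 16.2 equally used isoforms of 22 (inverse Simpson number). Of the exon bases of mod(mdg4), 58.1% are also exons of entries annotated under pre-mod(mdg4) names, so its counts may in part come from RNAs of those entries.

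The sodium channel gene para, with 20 transcripts, was the opposite. para-RBG held 88.7% and 89.0% of its counts in +/SPG-GAL4 males, against 89.8% and 90.4% in +/TraF males. lola, a transcription factor of axon guidance, used 4 of 22 isoforms, led by lola-RP with 32.0% ± 1.22, and cpx used 2 of 21, cpx-RY with 29.0% ± 1.06 and cpx-RG with 11.9% (SD, n = 4 each). sm, a splicing factor, had a near tie of sm-RAB with 43.4% and sm-RM with 40.0%, and sm-RM led in both +/SPG-GAL4 libraries. For Ank2, the giant cytoskeletal linker of axons, the main isoform depended on length. Ank2-RU (42128 nucleotides) led by counts with 27.7%, but per length Ank2-RN (4752 nucleotides) led with 37.8%.

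Among genes at 10 CPM or more with at least 5 transcripts, the highest main shares belonged to CG43102 with 99.3% ± 0.24, the transcription factor chinmo with 99.1% ± 0.42, the nuclear receptor Hr4 with 98.9% ± 0.64, the chaperone Hsc70-4 with 98.1% ± 0.33 and the RNA-binding protein msi with 97.6% ± 0.29 (SD, n = 4 each). After mod(mdg4) the lowest were Pfrx, the enzyme that sets the glycolytic signal fructose 2,6-bisphosphate, with 17.7%, ReepA, a protein that shapes the endoplasmic reticulum, with 19.8%, the deacetylase HDAC6 with 19.97% and the insulin signaling adaptor Lnk with 20.4%. In each of these the leading transcript differed between libraries. HDAC6 has 2 transcripts with identical annotated exons, HDAC6-RA and HDAC6-RG, whose counts were equal, 17.4% each, and together they exceed the named main isoform.

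Such sets of transcripts with identical exons cannot be told apart by reads. The table has 1275 transcripts in 607 sets, and in all 607 the counts differed by at most 1 in every library. They touch 488 of the 5277 genes. With each set summed the median main share was 77.0% over 5204 genes and the isoforms used were 1.89.

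Among the same genes, at 10 CPM or more with at least 5 transcripts, 5 had the largest SD of the main share over the libraries, from 13.2 to 15.3 percentage points. Hmgs, which makes a precursor of isoprenoids and juvenile hormone, had 27.9% and 51.4% in Hmgs-RF in +/SPG-GAL4 males, against 58.2% and 62.1% in +/TraF males. CG5191-RE had 59.7% and 32.7% in +/SPG-GAL4 males, against 31.8% and 57.2% in +/TraF males, so each genotype had a high and a low library. CG33111-RA had 52.6% and 56.7% in +/SPG-GAL4 males, against 24.1% and 41.7% in +/TraF males. rols-RA had 52.9% and 80.7% in +/SPG-GAL4 males, against 55.8% and 50.7% in +/TraF males, with a single high library. CG42390-RB had 79.1% and 63.4% in +/SPG-GAL4 males, against 47.0% and 66.0% in +/TraF males, and the genotypes overlapped. Brains of a replicate were pooled, so these shares are means over many males.

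**Figure D5:**
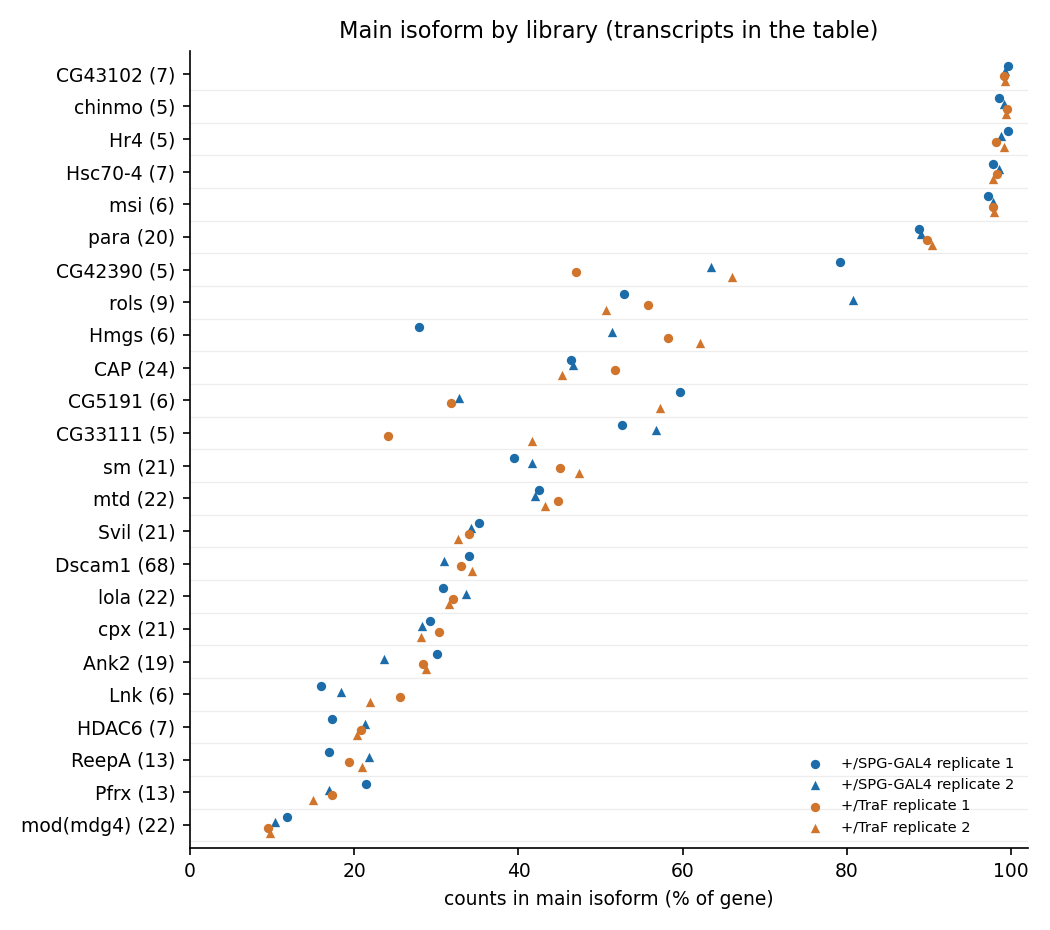
Percent of the counts of a gene in its main isoform, 1 point per control library, for the genes with the most transcripts and the highest, lowest and most variable main shares, with the number of transcripts in parentheses. Blue points are +/SPG-GAL4 replicates and orange points +/TraF replicates. The widest spreads over libraries are those of Hmgs, CG5191, CG33111, rols and CG42390, and the highest shares those of CG43102, chinmo and Hr4.

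The pooling of both genotypes was checked by testing them against each other. With edgeR's quasi-likelihood test on counts per gene, 11 of 9682 genes differed at a Benjamini-Hochberg adjusted p below 0.1, 0.114% of the genes tested. Of these, 5 were higher (0.0516% of the genes tested) and 6 lower (0.062%) in +/SPG-GAL4 males. Of all genes tested 442 had an unadjusted p below 0.05. Among the 11 called genes were 0 of the 30 genes with the highest CPM or TPM and 0 of the 368 tested genes of the lists. An unadjusted p below 0.05 was found for 3 of those 30 and 14 of those 368. The mitochondrial genes, whose sums did not overlap, had a median log2 fold change of -0.35, beside 0.01 over all genes, and 4 of the 13 had an unadjusted p below 0.05. The count of called genes rested on single libraries. It was 153 without +/SPG-GAL4 replicate 1, 3585 without +/SPG-GAL4 replicate 2, 64 without +/TraF replicate 1 and 172 without +/TraF replicate 2, where the lone replicate is assumed to vary like the other genotype. All 11 genes were called in each of these fits.

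Of the genes that differed, w (the eye pigment transporter gene white, also a common marker on fly transgenes) had 81.3 and 92.8 CPM on TMM-normalized library sizes in +/SPG-GAL4 males, against 19.2 and 21.2 in +/TraF males (log2 fold change 2.11 with a standard error of 0.12, edgeR adjusted p = 0.0159). The clock transcription factor vri had 15.1 and 13.3 CPM on the same scale in +/SPG-GAL4 males, against 36.0 and 37.4 in +/TraF males (log2 fold change -1.37 with a standard error of 0.10, edgeR adjusted p = 0.0194). GIIIspla2, a secreted phospholipase, was higher with 35.0 and 37.6 CPM on the same scale in +/SPG-GAL4 males against 15.1 and 15.6 in +/TraF males. The other called genes were below 60 CPM: CG14111, Sdic3 and BaraA1 were higher in +/SPG-GAL4 males, and CG6928, CG6908, CG6834, CG16965 and BaraA2 were lower. Sdic3 and BaraA1 had 0 counts in both +/TraF libraries and were at least 55.2-fold and 31.7-fold higher in +/SPG-GAL4 males, taking 3 counts per library as the floor. Sdic3 and the 2 BaraA genes have near-identical neighbours, and their counts may be split between copies.

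Isoform usage differed between the control genotypes in 216 of 4949 genes with edgeR's test of transcript usage (4.36% of the genes tested), and 523 had an unadjusted p below 0.05. The count was 419 without +/SPG-GAL4 replicate 1, 464 without +/SPG-GAL4 replicate 2, 14 without +/TraF replicate 1 and 57 without +/TraF replicate 2. Called were lola, Gs2 and CG33111 among the genes named for their abundance or isoforms, and 8 of the 252 tested genes of the lists (Syt1, ChAT, Hdc, Vmat, Eaat2, moody, shi and mub). The largest shift among the genes given here was in raptor, a subunit of the growth-controlling kinase complex TORC1, which has 2 transcripts. raptor-RB held 98.8% and 98.7% in +/SPG-GAL4 males, against 51.0% and 53.1% in +/TraF males (adjusted p = 6.83e-05, edgeR). In moody the share of moody-RF was 42.4% and 39.0% in +/SPG-GAL4 males, against 20.8% and 23.7% in +/TraF males (adjusted p = 0.0153, edgeR), while the sums of the gene overlapped. In Hdc, Hdc-RA had 0% in both +/SPG-GAL4 libraries, against 12.2% and 13.4% in +/TraF males, and the main isoform Hdc-RC led in all libraries, with 95.6% and 93.4% in +/SPG-GAL4 males, against 87.8% and 86.6% in +/TraF males (adjusted p = 0.00819, edgeR). These p-values measure only the spread between the 2 labelled biological replicates of each genotype. Of the 216 genes, 105 were called again without a filter on low counts. With at least 10 counts in every library, 40 were called again, in a fit of 4289 genes. Single calls can thus depend on the filter.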

How the data were processed

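Poly-A RNA from dissected brains was made into TruSeq RNA v1 libraries, which do not mark the strand, and sequenced in paired ends. The authors quantified transcripts with Kallisto (version and transcript release not given in the sources used here) and deposited its counts for each transcript, given as whole numbers and not normalized. Of the 6 count columns the 4 of control males were used. The 2 control genotypes were pooled as in the study, and the tissue, sex and genotype come from the labels.

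Transcripts were matched to genes, names, lengths and coordinates of Ensembl release 115 (BDGP6.54), and 10 transcripts (59.5 CPM in the mean) had no match. CPM, TPM from annotated lengths and shares were computed in Python 3.11.15 with pandas 2.3.3. Genotypes were compared with edgeR 4.0.16 in R 4.3.3 (TMM, filterByExpr, Benjamini-Hochberg adjusted p below 0.1, +/SPG-GAL4 over +/TraF), and usage with diffSpliceDGE. The functions were tested on simulated data. The alternatives were other thresholds, units, filters and size factors, DESeq2 1.42.0, limma-voom (limma 3.58.1), the replicate block, a fit with all 6 libraries and leaving out each library. Summing identical transcripts, CPM from TMM-adjusted sizes and removing the trend with length were added after seeing the data.

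The genes named are the 20 with the highest CPM and TPM, the 10 most abundant transcripts, the highest and lowest members of gene lists, the 10 genes with the most transcripts, the 5 with the highest, lowest and most variable main share among genes at 10 CPM or more with at least 5 transcripts, and up to 5 higher and 5 lower genes between genotypes. The genes given for usage, CG6834 and list members between the extremes (such as Hml, Ilp2 and ninaE) were picked with their values known. The members and lists were chosen with earlier results of these data known. RNAs of male dosage compensation without protein were not used here.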

Additional observations from a re-analysis of the deposited data

Results flagged for a closer look

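Of 99 quantities given per library, 4 had a library far from the other 3 (Dixon's test at the 95% level), and chance flags about 1 in 20. +/SPG-GAL4 replicate 2 had 17691 transcripts at 1 CPM or more, against 17410 to 17435 in the other libraries. The same library had the testis sum of 4.79 CPM against 0.457 to 0.899 CPM, and the share of rols-RA of 80.7% against 50.7% to 55.8%. +/SPG-GAL4 replicate 1 had the sum of voltage-gated channel genes of 8512 CPM against 5485 to 5881 CPM. These genes are long, that library was high in long messengers as a whole, and the part of length was not tested.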

How the results depend on the processing

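The numbers of expressed genes and transcripts stayed within 1.5 times of the reported ones under every alternative run, from 7320 genes at 5 CPM to 11073 at any count above 0, and from 11964 to 20319 transcripts, and from 8515 to 8542 genes and 16163 to 16279 transcripts when 1 library was left out. The share of the 10 most abundant genes was 12.1% in TPM, 4.77% without mitochondrial genes and 7.55% to 7.98% with 1 library left out. The isoforms used were 1.93 per length, 2.25 at a minimum of 5%, 1.51 at 20%, 1.89 with identical transcripts summed and 1.91 to 1.92 with 1 library left out. The median main share was 74.7% per length, 75% in genes with any count, 94.9% with genes of 1 transcript included, 77.0% with identical transcripts summed and 75.5% to 75.9% with 1 library left out. The 11 genes that differed between genotypes became 21 in the fit of 6 libraries, 36 with DESeq2, 30 with the trend with length removed and 64 to 3585 with 1 library left out. The 216 genes of isoform usage became 107 without a filter, 53 at 10 counts in every library and 14 to 464 with 1 library left out. No direction of the 11 genes reversed. BaraA2 missed the threshold with limma-voom (log2 fold change -3.16, adjusted p = 0.102), CG6834 missed it at 0.05 (adjusted p = 0.0607 in edgeR), and 3 genes could not be tested at 10 counts in every library. With the replicate block the counts were 310 and 52. The labels do not say that the numbers pair the samples. Deviations of same-numbered libraries correlated with r = 0.33, which with 2 replicates a genotype is a single value, so it is unknown whether the numbers stand for shared sittings. Why these counts moved was not tested. The effect of depth was hardly tested, since totals differ little between libraries. Low counts limited precision also above 1 CPM: the same main isoform led in all libraries in 71.1% of genes from 1 to under 10 CPM, against 96.2% at 1000 CPM or more.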
